A study of Mus musculus with 6 samples.

Results

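The glucocorticoid receptor gene Nr3c1, 7 genes known to be induced by the receptor and Hsd11b1, the gene of an enzyme that regenerates its hormone, were examined in whole bone marrow of mice given NOX-A12. They were chosen by name: every probe set whose array annotation gives exactly 1 gene symbol, and that symbol is Nr3c1, Fkbp5, Tsc22d3, Klf9, Zbtb16, Dusp1, Sgk1, Errfi1 or Hsd11b1. This gave 28 probe sets for the 9 genes, of 45037 probe sets and 18193 named genes in all, and 6 of the 9 genes had several probe sets. The marrow donors were 3 untreated SCID/Bg mice and 3 SCID/Bg mice that received NOX-A12, each with an Affymetrix Mouse Genome 430 2.0 array of its own. SCID/Bg is an immunodeficient strain without mature T and B lymphocytes and with impaired natural killer cells, and both groups carry it. NOX-A12 is a synthetic L-RNA aptamer that captures CXCL12, the chemokine that keeps blood-forming cells in the marrow. The sources used here do not give dose, schedule, age or hour of collection. Untreated mice are the control, and no vehicle is mentioned.

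Glucocorticoids are steroid hormones of the adrenal cortex, released in a daily rhythm and in stress. The receptor waits in the cytoplasm in a complex with chaperones, moves to the nucleus when it binds hormone, and switches genes on from DNA sites called glucocorticoid response elements. In marrow these hormones kill developing lymphocytes, dampen inflammatory cytokines and promote fat-cell differentiation of stromal cells, and several target genes respond within an hour or so.

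The 4 promoter windows shown are the one that holds the receptor's full element, both that hold the cyclic AMP element typical of fast-responding genes, and the Tsc22d3 window that holds a single arm of the receptor's element. RefSeq windows ran from 250 bases before to 50 bases after an annotated start site (build GRCm38.p6). Those of 7 of the 9 genes, 15 windows in all, were searched on both strands. The full palindromic glucocorticoid element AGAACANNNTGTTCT was present in 1 of the 15 windows, at an Sgk1 start site, and in 3 of all 32851 windows of the same length (0.00913%). The shorter pattern GNACANNNTGTNC, which the full element contains, was found in that same window alone among the 15 and in 0.475% of all windows. A single arm of the element, AGAACA or its reverse complement TGTTCT, was present in 4 of the 15 windows, those of Sgk1 and Tsc22d3, against 19.0% of all windows, and every full element counts here too. The cyclic AMP element TGACGTCA was present at Dusp1 and at 1 of the 2 Errfi1 start sites, against 1.79% of all windows. The motifs were chosen with these sequences in view, and a match describes letters only. The other 2 Sgk1 windows with a single arm are not shown. Capitals mark the glucocorticoid arms, the full element and the cyclic AMP element.
Sgk1, chr10:21993640-21993939, plus strand: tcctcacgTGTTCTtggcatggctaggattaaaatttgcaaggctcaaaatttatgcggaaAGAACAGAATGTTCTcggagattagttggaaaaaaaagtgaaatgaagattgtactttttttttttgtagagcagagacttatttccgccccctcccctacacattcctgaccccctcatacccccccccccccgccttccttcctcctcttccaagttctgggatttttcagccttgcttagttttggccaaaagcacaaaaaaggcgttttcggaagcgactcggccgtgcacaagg
Tsc22d3, chrX:140600473-140600772, minus strand: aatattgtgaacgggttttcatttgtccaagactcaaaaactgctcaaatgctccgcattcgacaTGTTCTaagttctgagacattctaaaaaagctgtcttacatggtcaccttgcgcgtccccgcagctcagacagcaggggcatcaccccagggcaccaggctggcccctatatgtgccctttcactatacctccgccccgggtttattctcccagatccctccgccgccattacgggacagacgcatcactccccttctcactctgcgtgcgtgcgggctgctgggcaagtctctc
Dusp1, chr17:26508423-26508722, minus strand: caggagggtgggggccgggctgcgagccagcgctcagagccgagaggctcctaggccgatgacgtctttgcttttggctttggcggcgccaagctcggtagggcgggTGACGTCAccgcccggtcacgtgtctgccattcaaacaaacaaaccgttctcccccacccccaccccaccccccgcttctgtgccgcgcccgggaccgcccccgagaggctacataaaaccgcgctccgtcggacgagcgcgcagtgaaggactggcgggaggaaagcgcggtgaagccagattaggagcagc
Errfi1, chr4:150854820-150855119, plus strand: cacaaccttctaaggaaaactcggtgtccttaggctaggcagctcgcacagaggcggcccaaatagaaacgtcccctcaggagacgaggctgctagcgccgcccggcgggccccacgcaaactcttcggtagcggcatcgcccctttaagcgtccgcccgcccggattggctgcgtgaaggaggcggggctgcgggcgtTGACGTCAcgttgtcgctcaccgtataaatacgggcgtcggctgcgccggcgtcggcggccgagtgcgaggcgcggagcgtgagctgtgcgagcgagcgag
In the Sgk1 window the full element begins 189 bases before the start site, and in the Tsc22d3 window the single arm begins 185 bases before it. The cyclic AMP element begins 143 bases before the Dusp1 start site and 51 bases before the Errfi1 start site. None of the windows of Fkbp5, Klf9 and Hsd11b1 held these letters, which says nothing of elements farther away. No window of Zbtb16 or Nr3c1 was among the 15.

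Intensities are linear units of the deposited table, and a change is the treated minus the untreated mean of log2(intensity + 16), a scale on which differences between low intensities are compressed. Errors of changes are standard errors (SE) from limma, fitted to all 45037 probe sets with Benjamini-Hochberg adjustment. Array medians lay between 44.8 and 45.6. The array of untreated mouse 3 stood apart: it deviated more than 2-fold from the other mice's median at 851 probe sets, where any other array did so at 44 to 67, so the change of each gene without it is given beside its values or with the spread between mice. As a check of the tissue, the neutrophil markers S100a8 and S100a9 were at 14587 or more in every mouse, and 2 of 7 measured T and natural killer cell markers, Cd3e and Cd4, averaged under an intensity of 16. Cd3d, from the same list, did not: it read 1105, 1513 and 1340 in untreated and 1895, 1893 and 1650 in treated mice. With whole marrow, fewer cells of a type and less RNA per cell cannot be told apart.

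No gene of the set passed the test. Of the 28 probe sets, 0 had an adjusted p under 0.05 (0% of all 45037 probe sets did), and 0 had an unadjusted limma p under 0.05, against 4.97% of all probe sets (1.88% higher and 3.10% lower). The groups overlapped at all 28, whereas they did not overlap at 9.85% of all probe sets. At the brightest probe set of each gene, 4 changes were above 0 and 5 below, with a median of -0.06 beside -0.01 over the brightest probe sets of all 18193 genes. Over all 28 probe sets, where most genes count more than once, 18 changes were above 0 and 10 below, with a median of 0.09. The lowest adjusted p among the 28 was 0.967.

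**Figure D1:**
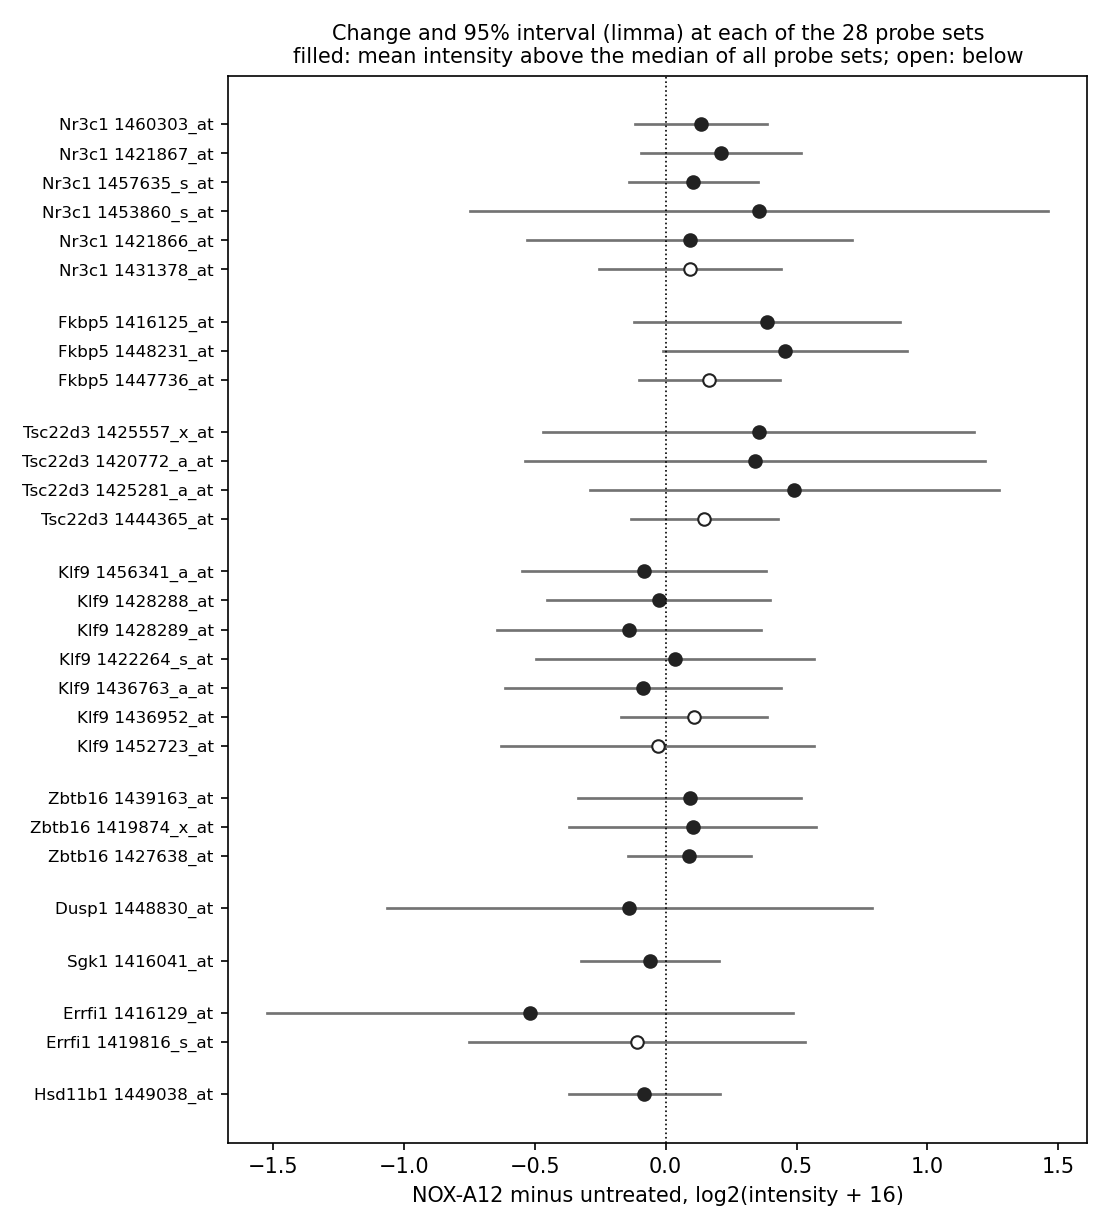
Log2 change (NOX-A12 minus untreated, horizontal axis) with its 95% limma interval at each of the 28 probe sets, filled where the mean intensity lay above the median of all probe sets. Every interval includes 0. At the brightest probe sets the intervals are narrow for Nr3c1, Sgk1 and Hsd11b1 and wide for Tsc22d3, Dusp1 and Errfi1.

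The receptor itself was among the steadiest genes of the set when each was read at its brightest probe set. Nr3c1 at its brightest probe set read 874, 980 and 782 in untreated mice 1 to 3 and 979, 943 and 968 in NOX-A12 mice 1 to 3. The treated mice lay close together, inside the range of the untreated mice. Group means were 879 ± 99.1 (SD, n = 3) untreated and 963 ± 18.1 (SD, n = 3) with NOX-A12, a log2 change of 0.14 ± 0.11 (95% interval -0.12 to 0.39), or 0.06 without untreated mouse 3. All 6 Nr3c1 probe sets gave a change above 0, from 0.09 to 0.36. The highest of these came from a probe set with the suffix _s_at, which may bind transcripts of several genes, and it turned to -0.14 without untreated mouse 3. Dim probe sets averaging 57.5 and 42.9 also changed sign. They turned to -0.22 without untreated mouse 3 and to -0.04 without untreated mouse 2, respectively. The interval at the brightest probe set corresponds to a fold between 0.923 and 1.31.

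Hsd11b1, whose product regenerates active corticosterone inside cells and is known from fat and stromal cells, was as steady under treatment. Its probe set read 1461, 1962 and 1734 in untreated mice and 1579, 1646 and 1609 in treated mice. The treated values again fell inside the untreated range. The change was -0.08 ± 0.12 (95% interval -0.37 to 0.21) and had the opposite sign, 0.02, without untreated mouse 2. Markers of stromal and fat cells gave larger differences in the same arrays. The summed intensity of 10 of 10 stromal markers ran from 7035 to 8667 in untreated and from 5210 to 6105 in treated mice, with no overlap, and 0 of them averaged 16 or less. That of 5 of 7 fat-cell markers ran from 4168 to 6276 untreated and from 3176 to 4578 treated, and again 0 averaged 16 or less. Their part in the Hsd11b1 value was not tested.

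Fkbp5 encodes a co-chaperone that lowers the receptor's affinity for hormone and is itself strongly induced by it. At its brightest probe set it read 888, 777 and 967 in untreated mice and 1020, 909 and 1629 in treated mice. NOX-A12 mouse 3 stood above the rest, and mouse 2 of that group lay within the untreated range. Group means were 877 ± 95.5 (SD, n = 3) and 1186 ± 388 (SD, n = 3), and the change of 0.39 ± 0.22 (95% interval -0.12 to 0.90) was 0.14 without NOX-A12 mouse 3. A second, dimmer probe set had the smallest unadjusted p of the 28 (limma adjusted p = 0.967). It read 62.0, 47.8 and 36.7 in untreated and 65.5, 58.1 and 96.0 in treated mice, a change of 0.46 ± 0.20, or 0.28 without NOX-A12 mouse 3. Here untreated mouse 1 lay above NOX-A12 mouse 2. The sign was above 0 at all 3 Fkbp5 probe sets and without any of the 6 mice. The third of them read only 2.06 to 8.28 over the 6 mice, under 16 throughout, so its sign adds little.

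Zbtb16, a zinc-finger transcription factor of progenitors and innate-like lymphocytes that glucocorticoids induce in many tissues, had its highest value in that same animal at its brightest probe set. The brightest probe set read 94.2, 99.9 and 110 in untreated and 94.8, 89.6 and 151 in treated mice. NOX-A12 mouse 3 was the highest of the 6, and NOX-A12 mouse 2 the lowest. The change was 0.09 ± 0.18, and -0.12 without NOX-A12 mouse 3. Several mice had the highest sum of some marker lists. Untreated mouse 1 had it for neutrophil, monocyte and macrophage, B lineage and erythroid markers. Untreated mouse 3 had it for stromal, fat-cell and endothelial markers. NOX-A12 mouse 3 had the highest sum of 3 marker lists. It was 1644 against 1341 to 1568 in the other mice for 5 of 6 stem and progenitor markers. Of these, Cd34, Flt3 and Procr were highest in another mouse, and Procr was lowest in NOX-A12 mouse 3. The sum was 15313 against 11763 to 14212 for 6 of 6 eosinophil, basophil and mast cell markers, of which Prg2, Cpa3 and Siglecf were highest in an untreated mouse. For 7 of 7 skeletal muscle markers the sum was 295 against 235 to 278, with Mylpf, Tnnt3 and Mb highest in another mouse. Of these 7, 3 averaged 16 or less, against 0 in the other 2 lists. Their part in the Fkbp5 and Zbtb16 values was not tested.

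Tsc22d3, which encodes the anti-inflammatory leucine-zipper protein GILZ, varied widely between untreated mice. Its brightest probe set read 733, 1686 and 2013 in untreated and 1646, 2039 and 1568 in treated mice. That probe set has the suffix _x_at, so its probes may also bind other transcripts. Untreated mouse 1 was low, and the other 5 mice overlapped freely. The change of 0.36 ± 0.35 (95% interval -0.47 to 1.18) turned to -0.08 without untreated mouse 1, and 0.34 ± 0.37 at the next probe set turned to -0.11. The third, at 0.49 ± 0.33, kept its sign at 0.11. The low value of untreated mouse 1 was seen at all 3 bright probe sets of Tsc22d3, which may bind the same transcripts and are not independent measures.

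Klf9, a zinc-finger repressor that responds to glucocorticoids and thyroid hormone, had 7 probe sets, 2 with a change above 0 and 5 below, between -0.14 and 0.11. The brightest read 593, 828 and 797 in untreated and 531, 841 and 733 in treated mice. Mouse 1 was the lowest of either group. The change was -0.08 ± 0.20, and its sign differed without untreated mouse 2 (0.00) or NOX-A12 mouse 1 (0.10).

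Dusp1 and Errfi1 encode feedback inhibitors of growth-factor signalling: Dusp1 a phosphatase that inactivates MAP kinases, Errfi1 an inhibitor of the EGF receptor. Dusp1 read 2106, 3724 and 3110 in untreated and 4116, 3135 and 1413 in treated mice. Its highest and lowest values were both in the treated group, NOX-A12 mice 1 and 3. Group means were 2980 ± 817 (SD, n = 3) and 2888 ± 1369 (SD, n = 3), a change of -0.14 ± 0.39 that became 0.04 without untreated mouse 2 and 0.31 without mouse 3 of the treated group. Errfi1 read 79.2, 207 and 291 in untreated and 97.9, 169 and 89.4 in treated mice. Its highest and lowest values were both in the untreated group, in mice 3 and 1. The change of -0.52 ± 0.43 (95% interval -1.52 to 0.49) was the largest in size among the brightest probe sets of the 9 genes, yet it moved to -0.16 without untreated mouse 3 and to -1.003 without untreated mouse 1.

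Sgk1, a kinase that controls ion channels and cell survival, carries the full hormone element in the window printed above. It was nearly level: 1396, 1319 and 1220 in untreated and 1313, 1357 and 1111 in treated mice. Group means were 1312 ± 87.9 (SD, n = 3) and 1260 ± 132 (SD, n = 3). The change was -0.06 ± 0.11 (95% interval -0.32 to 0.20), a fold between 0.799 and 1.15, and it was 0.03 without NOX-A12 mouse 3.

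**Figure D2:**
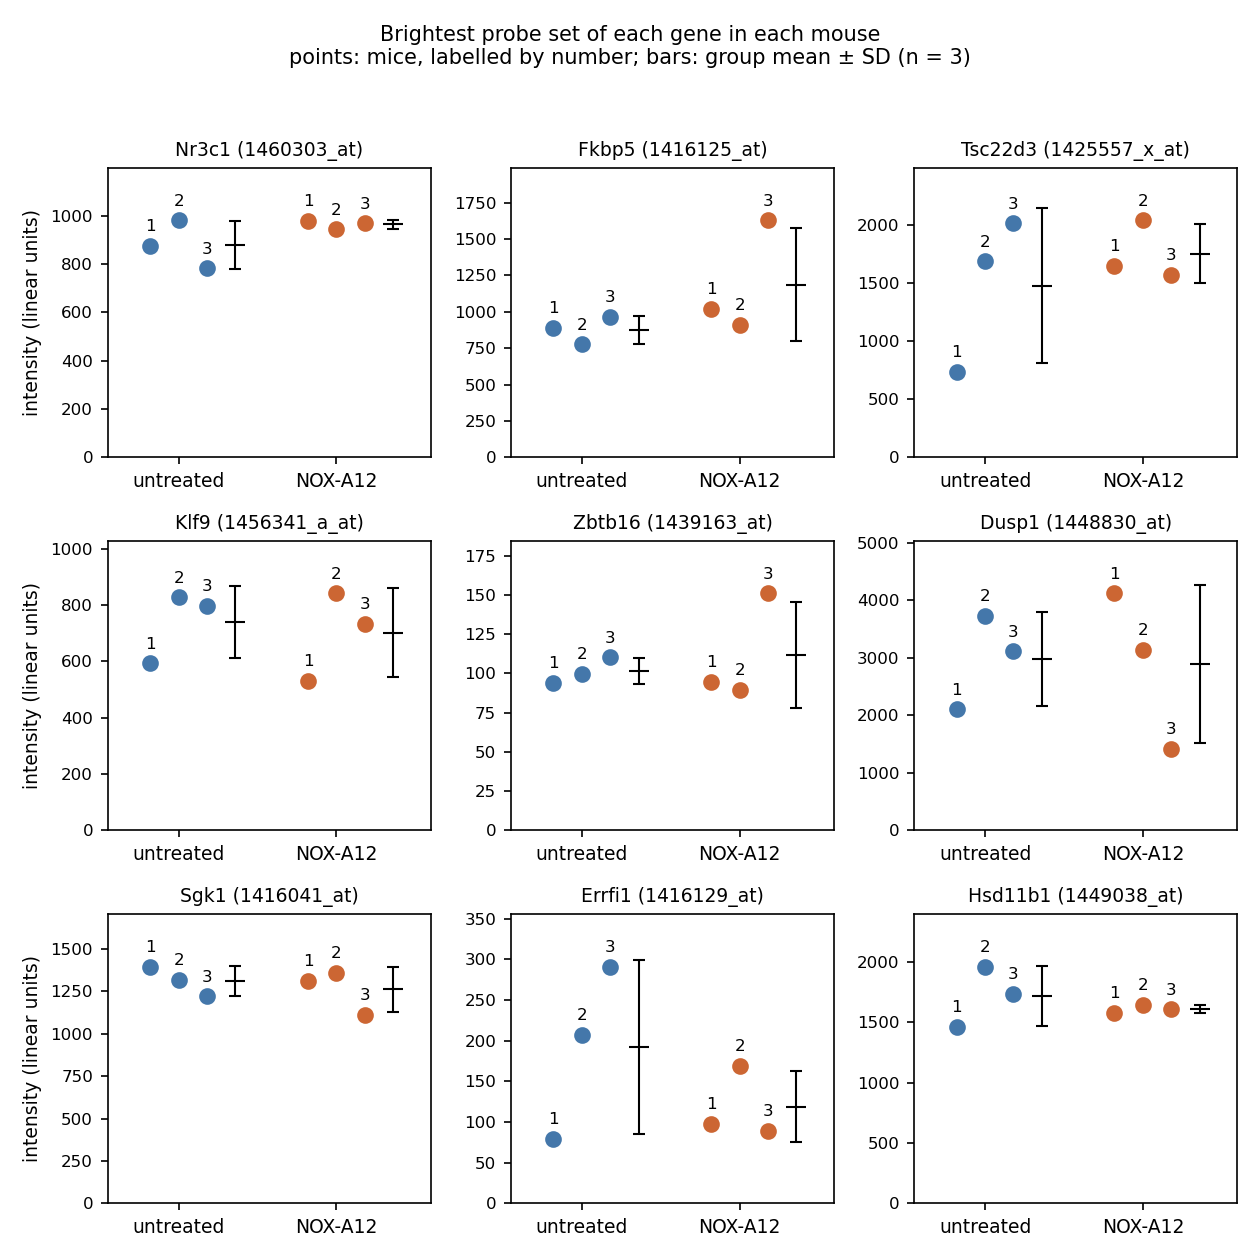
Intensity (linear units, vertical axes from 0) of the brightest probe set of each of the 9 genes in each mouse, points labelled with the mouse number, and group mean ± SD (n = 3) as bars. Untreated mouse 1 is low for Tsc22d3 (733) and Errfi1 (79.2), and NOX-A12 mouse 3 is high for Fkbp5 (1629) and low for Dusp1 (1413).

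At the brightest probe set of all 9 genes, the wider of the ranges within the groups was larger than the change in size. That is likely for any gene whose groups overlap, and its share over all probe sets was not counted. The residual SD within groups (log2 scale) lay at the 99.4 percentile of all probe sets for Errfi1 (0.69), 99.2 for Dusp1 (0.64) and 98.7 for Tsc22d3 (0.56). It lay at 27.0 for Nr3c1 (0.11), 33.6 for Sgk1 (0.13) and 45.2 for Hsd11b1 (0.15). At these brightest probe sets the receptor, its hormone-activating enzyme and Sgk1 thus varied less between mice than the other genes of the set. Dimmer probe sets differed: one of Nr3c1 lay at 99.6 (0.76) and one of Zbtb16 at 17.4 (0.09). Without untreated mouse 3 the changes at the brightest probe sets were 0.64 for Tsc22d3, 0.46 for Fkbp5, 0.15 for Zbtb16, -0.02 for Klf9, -0.07 for Hsd11b1, -0.09 for Dusp1 and -0.11 for Sgk1, each of the same sign as with it. Untreated mouse 1 was the lowest of its group for 6 of the 9 genes, namely Tsc22d3, Klf9, Zbtb16, Dusp1, Errfi1 and Hsd11b1, while 33.0% of all probe sets were lowest in that mouse.

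Of the 19 other hormone-induced genes, 3, picked after their values were seen, shared part of this order. Per1, a clock gene that the receptor activates directly, read 73.7, 319 and 650 in untreated and 124, 483 and 203 in treated mice. Ddit4, an inhibitor of mTOR signalling, read 242, 841 and 894 untreated and 389, 689 and 238 treated. Nfkbia, the inhibitor of NF-kappa-B, read 2941, 5280 and 4384 untreated and 4159, 4445 and 2957 treated. For all of them, and for Tsc22d3, Klf9, Errfi1 and Hsd11b1 of the set, untreated mice 2 and 3 lay above untreated mouse 1, and NOX-A12 mouse 2 above its group mates, an order noticed in these data and found at the brightest probe set of 7.28% of all genes. The other 16 did not have it: Rgs2 read 4067, 3048 and 2414 untreated, highest in mouse 1. The changes between groups were -0.13 ± 0.75 for Per1, -0.49 ± 0.55 for Ddit4 and -0.11 ± 0.24 for Nfkbia.

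Immediate early genes, which respond within minutes to handling and growth factors, were ordered otherwise. Of 9 such genes 0 passed the test, all 9 changes were above 0, and the median was 0.35. Atf3 (0.00 ± 0.12) and Egr1 (0.05 ± 0.25) were level within their errors. At 3 of them, Ier3 (0.35 ± 0.12), Nr4a1 (0.30 ± 0.11) and Fosb (0.45 ± 0.17), the unadjusted p was under 0.05 (limma adjusted p = 0.967 each). Of all probe sets, 1.88% had such a p and a higher value. The groups did not overlap at these 3 genes, as at 9.85% of all probe sets in either direction. The summed intensity of all 9 was 4496, 2066 and 1862 in untreated and 6116, 4346 and 1873 in treated mice. Fos, which makes up much of it, read 2205, 618 and 449 untreated and 3544, 2041 and 306 treated. Untreated mouse 1, low for Tsc22d3, Errfi1, Per1 and Ddit4, was thus high for Fos in its group, and NOX-A12 mouse 3 was the lowest of the 6 for both Fos and Dusp1. None of the 9 averaged 16 or less, and the part of these genes in the values above was not tested.

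**Figure D3:**
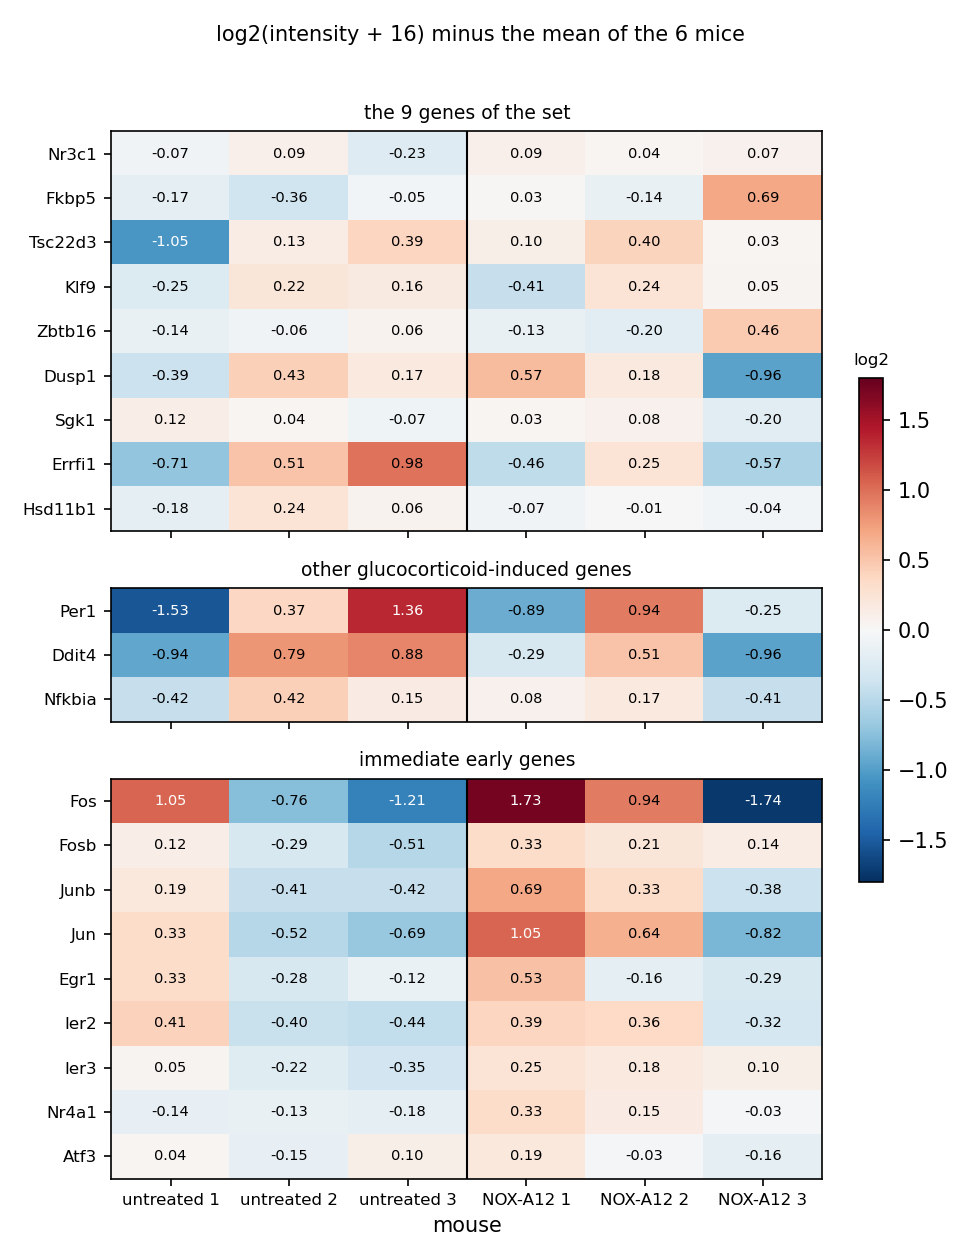
Log2(intensity + 16) of each gene minus its mean over the 6 mice (colour and number), for the 9 genes of the set, 3 further hormone-induced genes and 9 immediate early genes, columns being mice. Untreated mouse 1 is at -1.05 for Tsc22d3 and -1.53 for Per1 but at 1.05 for Fos, and NOX-A12 mouse 3 is at 0.69 for Fkbp5 and -0.96 for Dusp1.

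Genes of the receptor complex and of hormone supply were near level. Of 14 listed genes, 10 had a probe set of their own, 0 passed the test, 5 changes were above 0 and 5 below, and the median was 0.00. Smallest in p were Fkbp4, the co-chaperone that competes with Fkbp5's product (0.26 ± 0.14), Stip1, which hands client proteins from HSP70 to HSP90 (0.29 ± 0.18), and Hsp90aa1, an inducible HSP90 gene (0.15 ± 0.10), at a limma adjusted p of 0.967 each. Fkbp4 read 549, 419 and 418 in untreated and 627, 546 and 496 in treated mice, so untreated mouse 1 overlapped the treated group. Nr3c2, the mineralocorticoid receptor that also binds corticosterone, is added outside the rule for named genes; it averaged under 16 and gave -0.07 ± 0.12.

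Of 19 other genes that glucocorticoids induce, 0 passed, 10 changes were above 0 and 9 below, and the median was 0.03. Il1r2, a decoy receptor for interleukin-1, was the only one with an unadjusted p under 0.05 (limma adjusted p = 0.926). It read 480, 353 and 465 in untreated and 614, 676 and 724 in treated mice, which do not overlap, as at 9.85% of all probe sets in either direction. Next came Rgs2, a brake on G-protein signalling (0.35 ± 0.18), and Bcl2l11, the gene of the death factor BIM (-0.21 ± 0.13).

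Of 11 cytokine and inflammatory genes that glucocorticoids repress, 0 passed over all probe sets, 6 changes were above 0 and 5 below, and the median was 0.00. The cytokine gene Il1a read 43.3, 53.0 and 52.8 in untreated and 37.9, 33.4 and 35.3 in treated mice, a change of -0.35 ± 0.10. The chemokine gene Cxcl10 gave -0.33 ± 0.11 and the growth-factor gene Csf2 -0.38 ± 0.16. All of them were dim, and Csf2 averaged under 16. Their groups did not overlap, as for 5.85% of all probe sets with lower values in every treated mouse. Il1b and Tnf, named after their values were seen, gave 0.38 ± 0.20 and 0.32 ± 0.17, so the values of the list did not share a direction.

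**Figure D4:**
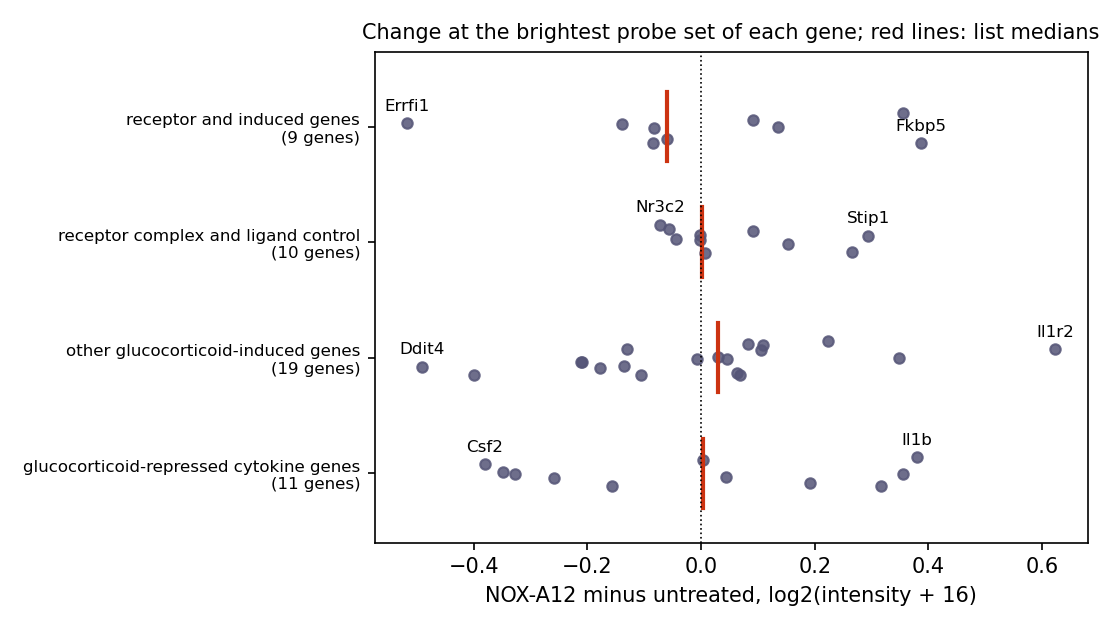
Log2 change (NOX-A12 minus untreated) at the brightest probe set of each gene, for the 9 genes of the set and the lists of 10 receptor-complex, 19 other induced and 11 repressed genes; red lines are medians and the outermost genes are named. All 4 medians lie between -0.06 and 0.03, and Il1r2 at 0.62 is the farthest point.

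Genes whose values across the 6 mice were most like those of Nr3c1, Fkbp5 and Tsc22d3 were listed by the root mean square difference of mean-centred log2 values, among 10998 genes above the median intensity. For Nr3c1 they were Ugt8a (0.0138), Bace1 (0.0197) and Tmem38b (0.0201), where the median over the genes was 0.157. For Fkbp5 they were Chchd3 (0.101), Asl (0.110) and Nudt13 (0.112), with a median of 0.343. For Tsc22d3 they were Oaz2 (0.248), Trem1 (0.265) and Gpr65 (0.271), with a median of 0.498. None of the other genes of the set was among them, and with 6 mice and so many genes some lie close to any profile.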

How the data were processed

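Total RNA from marrow of 6 SCID/Bg mice, 1 per array, was labelled with biotin and hybridised, per the labels' protocols. The authors' deposited table holds 1 linear intensity per probe set and array; its software and normalization are not given in the sources used. The log2 medians of the arrays differed by at most 0.0193, and values were used as deposited. Groups and mouse numbers came from sample titles, and the labels number separate mice. Probe sets were named through the platform annotation: 34945 carried 1 symbol, 932 carried several, which stayed unnamed, and for 9160 none was listed. Log2(intensity + 16) of the 6 arrays entered limma 3.58.1 under R 4.3.3 (lmFit and eBayes, two-sided) with treatment as the only term. P-values were Benjamini-Hochberg adjusted over 45037 probe sets, with a threshold of 0.05. On simulated arrays the fit recovered 61.2% of 2-fold and 91.9% of 4-fold differences at bright probe sets, and 3.73% of its calls were false. For lists, the probe set of highest mean stood for a gene. The number of arrays limits the precision.

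The genes and lists were chosen with earlier results of these data known, so lists are described by counts and medians and have no test. All probe sets of the 9 genes were named; of the 3 pathway lists, the 3 genes of smallest p, with exceptions stated. Marker lists served as summed intensities. Of 137 listed genes in 16 lists, 121 had a probe set of their own. The marker lists gave medians of -0.50 for stromal (10 genes), -0.52 for fat-cell (5), -0.28 for osteoblast (3), -0.33 for endothelial (6), -0.02 for skeletal muscle (7), 0.03 for neutrophil (7), -0.03 for monocyte and macrophage (6), -0.40 for B lineage (6), -0.09 for T and natural killer (7), 0.02 for erythroid (4), 0.00 for stem and progenitor markers (5), and 0.02 for eosinophil, basophil and mast cell markers (6). Promoter windows are RefSeq sequences of GRCm38.p6. Alternatives were other normalizations, an offset of 1 or 64, only bright probe sets, other variance models, a block for mouse number, 1 mouse left out at a time, other probe sets per gene and a threshold of 0.1.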

Additional observations from a re-analysis of the deposited data

How the results depend on the processing

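No probe set of the 9 genes and none of all probe sets passed at an adjusted limma p of 0.05 in any of 14 other fits, and none did at 0.1 with the settings of the report. The lowest adjusted p of all probe sets was 0.79 there, 0.0706 with an offset of 1 and 0.0631 without untreated mouse 1, and the lowest over the other fits was 0.216. The unadjusted count under 0.05 was 2240, 3555 without untreated mouse 1 and 1055 with dim probe sets left out, where fewer were tested. The median change of the 9 genes was -0.06. It lay between -0.09 and -0.03 under the other settings that kept all mice, and between -0.10 and 0.10 when single mice were left out, being 0.10 without NOX-A12 mouse 1. Of the 28 probe sets, 11 kept their sign in every fit, 17 lost it without at least 1 mouse, and 2 of those also did so with array weights. With the mouse number as a replicate block, 0 probe sets passed and the median was -0.06. Same-numbered mice of the groups are different animals. Their deviations from the group means correlated at -0.09, 0.05 and 0.03 across probe sets. A value over all probe sets cannot exclude a pairing that touches few genes. With 3 mice per group, the fit recovered 17.5% of 1.5-fold differences put into randomly drawn bright probe sets of simulated arrays, so small changes could be missed. The median residual SD was 0.30 at the brightest probe sets of the 9 genes and 0.14 at all probe sets above the median intensity. Larger changes could thus be missed too at the more variable genes of the set.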
